A study of Mus musculus with 18 samples.

Results

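Immediate early genes are described here in mouse induced pluripotent stem cells (iPSCs) before and 24 h after they were pushed towards epiblast-like cells (EpiLCs). The set holds 10 of the 45706 genes in the count table, found by their symbols: Fos, Fosb, Fosl1, Jun, Junb, Egr1, Egr2, Ier2, Ier3 and Atf3. All RNA came from iPSCs that were either Hmga2 wt, from a line labelled wt iPSC #1, or Hmga2 KO, from KO clone #1 or KO clone #2, so wt rests on a single line and the KO on a pair of clones. The 18 libraries fall into 6 groups of 3 biological replicates: wt, KO#1 and KO#2 at 0 h and the same at 24 h. Cells at 0 h were undifferentiated and grew over mitotically inactivated fibroblasts in serum, with leukaemia inhibitory factor (LIF) and inhibitors of MEK and GSK3. Cells at 24 h had been replated, feeder-free, onto basement membrane matrix in a serum-free medium with Activin A and basic FGF, and the inhibitors and LIF were left out. Feeders, serum, inhibitors, LIF, growth factors and replating all change together with time, so their parts in any difference between 0 h and 24 h cannot be told apart. In bulk RNA, fewer cells of a type and less RNA per cell also cannot be told apart.

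Immediate early genes are switched on within minutes of a growth factor, serum or stress signal, without the need for new protein, and their transcripts are short-lived. The ERK kinase cascade, blocked by MEK inhibitors, reaches many of them through serum response factor (SRF) and its ternary complex partners, and cyclic AMP and stress kinases reach them through CREB and ATF proteins. Fos, Fosb and Fosl1 proteins pair with Jun or Junb to form AP-1, Egr1 and Egr2 are zinc finger factors held back by Nab corepressors, and Atf3 is a stress-induced member of the ATF family. Ier2 encodes a nuclear regulator of transcription and Ier3 a stress-response protein linked to cell survival.

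The sequence just upstream of the start sites is shown because the elements named above were searched for there. A RefSeq window on GRCm38.p6, from 250 bases before to 50 bases after a start site, was found for 7 of the 10 members. Fosl1, Egr1 and Ier2 had no window, so no motif was searched for in them. The 150 bases just upstream are printed for 4 of the 7 matched members, 5′ to 3′ on the gene's strand. Fos and Egr2 hold the most matches, Junb holds a single upstream match, and Jun holds no match in its window. Capitals mark CArG boxes (the SRF element), TGACG (the core of a CREB and ATF site, CGTCA on the other strand) and TATAAA.
Fos, chr12:85473740-85473889, plus strand: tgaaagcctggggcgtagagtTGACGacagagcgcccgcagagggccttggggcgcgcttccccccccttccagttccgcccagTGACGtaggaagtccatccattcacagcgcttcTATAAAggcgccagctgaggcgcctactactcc
Egr2, chr10:67537719-67537868, plus strand: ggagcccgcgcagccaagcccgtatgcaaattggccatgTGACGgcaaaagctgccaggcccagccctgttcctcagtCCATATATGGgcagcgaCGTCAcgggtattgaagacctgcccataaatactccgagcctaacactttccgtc
Junb, chr8:84978749-84978898, minus strand: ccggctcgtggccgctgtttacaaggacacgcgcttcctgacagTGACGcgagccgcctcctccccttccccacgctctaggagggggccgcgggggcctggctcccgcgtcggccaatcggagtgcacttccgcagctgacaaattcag
Jun, chr4:95052223-95052372, minus strand: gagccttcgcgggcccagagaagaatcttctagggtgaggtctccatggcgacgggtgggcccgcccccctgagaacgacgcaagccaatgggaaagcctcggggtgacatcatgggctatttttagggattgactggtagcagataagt

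In the Fos sequence, TGACG began 129 and 66 bases upstream of the start site and TATAAA began 33 bases upstream. Egr2 has 5 such windows, and in the printed sequence of the third the CArG box lay 72 to 63 bases upstream, between TGACG at 111 and CGTCA at 55 bases upstream. Both strands were searched for 5 motifs, and a CArG box occurred in 1.63% of the 32851 RefSeq windows of 300 bases and, among the matched members, in Egr2 only. These shares are per window, and Egr2 had 5 windows in which to match. TGACG occurred in 20.8% of windows, and in Fos, Fosb, Junb, Egr2 and Atf3. The AP-1 element TGANTCA, in 7.81% of windows, was found in no member's window, and the Egr element GCGNGGGCG, in 5.55%, was found in Fosb. TATAAA, in 13.6% of windows, was found in Fos and Junb, in Junb just after the start site. The windows of Jun and Ier3 held none of the 5 motifs. No match shown overlaps another, a match is a description of letters, and a window without one says nothing about a factor.

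By the annotation (GENCODE M21, GRCm38) all members are protein-coding genes. Among the AP-1 genes, Fos (ENSMUSG00000021250) spans chr12:85473890-85477273, Fosb (ENSMUSG00000003545) chr7:19302696-19310051, Fosl1 (ENSMUSG00000024912) chr19:5447547-5455946, Jun (ENSMUSG00000052684) chr4:95049034-95052222 and Junb (ENSMUSG00000052837) chr8:84974484-84978718. Egr2 (ENSMUSG00000037868) spans chr10:67535475-67542188, Ier2 (ENSMUSG00000053560) chr8:84661331-84662852, Ier3 (ENSMUSG00000003541) chr17:35821684-35822923 and Atf3 (ENSMUSG00000026628) chr1:191170296-191218039, and Egr1 is ENSMUSG00000038418. Jun overlaps the antisense gene Junos, Junb overlaps Prdx2, Fosl1 overlaps Ccdc85b and Atf3 overlaps Gm24748 on the opposite strand. The libraries were made with a stranded kit, but whether the counting used strand is not given in the sources used here, and without it their reads cannot be told apart.

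Library totals ran from 3466436 to 23872837 counts, and the shallowest were at 0 h, 3466436 to 10599720 counts in wt and 4531798 to 14613617 in KO#1. A count of 3, taken as the floor, corresponds to 0.116 to 0.983 CPM (counts scaled to a common library size), depending on the library. The share of counts on protein-coding genes was 82.3 to 84.7% in the KO#2 libraries at 24 h against 41.6 to 63.4% in wt and 41.3 to 63.1% in KO#1 at that time. The targeted gene, Hmga2, ran from 13.3 to 22.3 CPM in wt at 0 h against 1.75 to 10.2 in KO#1 (log2 fold change -1.71, adjusted p = 0.124) and 1.84 to 8.24 in KO#2 (-1.90, adjusted p = 0.0230). The KO#2 call of Hmga2 was lost without wt 0 h replicate 3 (-1.69, adjusted p = 0.0759), KO#2 0 h replicate 1 (-1.81, adjusted p = 0.0699) or KO#2 0 h replicate 2 (-1.52, adjusted p = 0.0860). At 24 h Hmga2 ran from 5.51 to 5.93 CPM in wt and from 0.870 to 3.67 in KO#1. Hmga2 was not called between these groups, nor in any of the 6 fits that left out a library (-1.90 to -0.92, adjusted p 0.147 to 0.493). The libraries labelled KO#2 held 3.02 to 10.4 CPM of it at that time, with a log2 fold change of -0.04 (adjusted p = 0.967) between them and wt. The summed CPM of 10 naive pluripotency genes lay between 3116 and 4299 in the wt libraries at 0 h and between 300.2 and 327 at 24 h. That of 8 primed genes lay between 131 and 205 at 0 h and between 1330 and 2208 at 24 h.

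Levels were compared between genes per length, as CPM per kilobase of exon (RPKM). In wt cells at 0 h the order of mean levels was Ier2 at 88.6 ± 61.6 RPKM (SD, n = 3), Fos at 33.8 ± 35.7, Egr1 at 9.13 ± 9.16, Junb at 7.67 ± 1.36, Jun at 6.22 ± 2.82, Ier3 at 5.26 ± 1.10, Atf3 at 5.25 ± 4.51, Fosb at 1.07 ± 0.998, Egr2 at 0.360 ± 0.518 and Fosl1 at 0.0961 ± 0.0593. No neighbours in that order differed by more than the larger of their SDs. At 24 h in wt cells Ier2 still led at 45.1 ± 5.18 RPKM, followed by Ier3 at 4.16 ± 0.306, Junb at 3.29 ± 0.713, Jun at 1.14 ± 0.335, Atf3 at 0.852 ± 0.221, Fosl1 at 0.407 ± 0.0220, Egr1 at 0.234 ± 0.0478 and Fos at 0.158 ± 0.116. Fos thus stood second of the 10 members at 0 h and eighth at 24 h, and Fosb and Egr2 were at 0 or 1 count in every wt library at 24 h. In the 24 h order, Jun and Atf3 did not differ by more than the larger SD, nor did Egr1 and Fos. All 10 members passed the filter on low counts, but Fosb reached the filter's level of 0.607 CPM in 7 of 9 libraries at 0 h and in 0 of 9 at 24 h, Egr2 in 3 and 1, and Fosl1 in 2 and 6, so each of these 3 passed through the samples in which it was high.

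**Figure D1:**
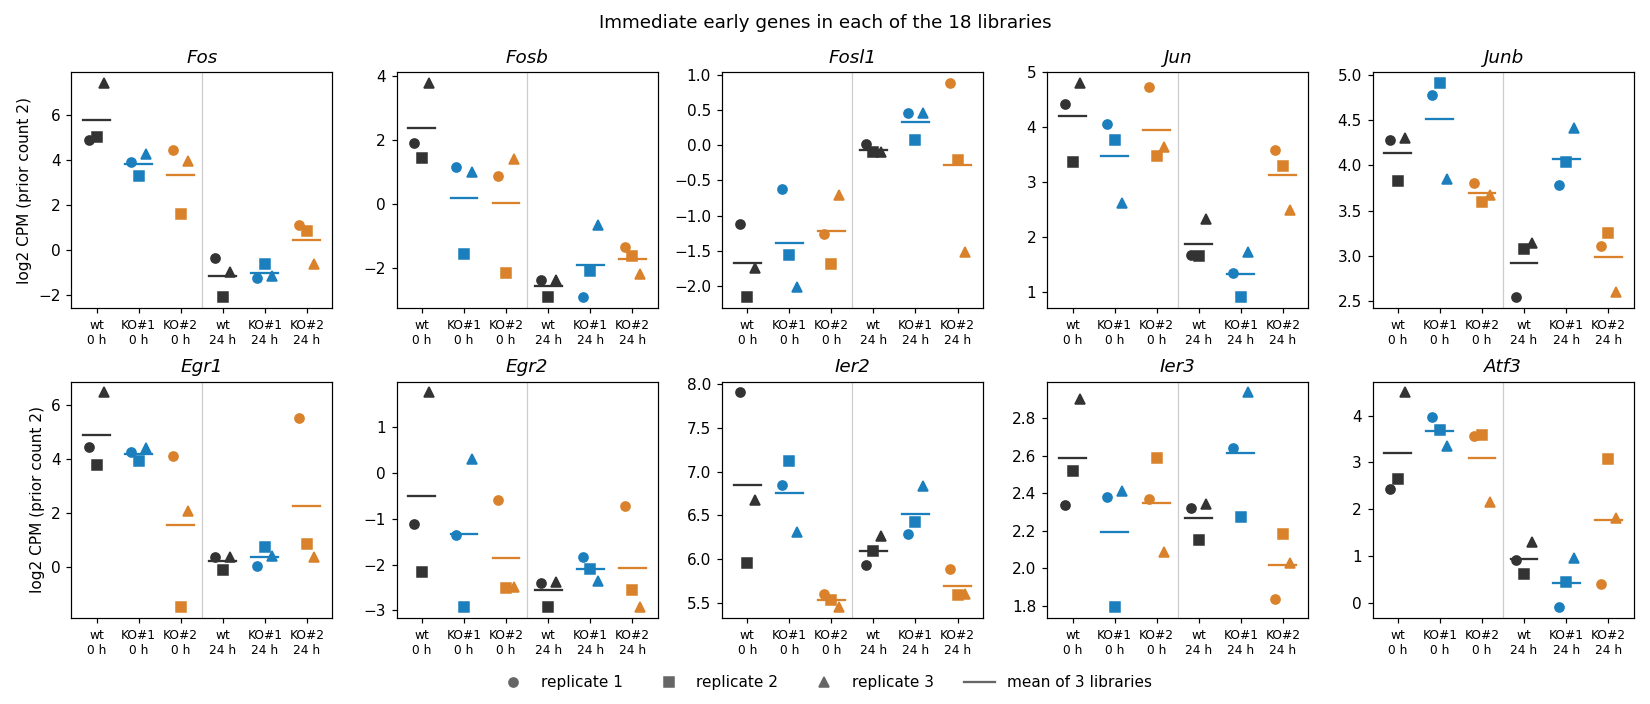
Level of each member in each of the 18 libraries, as log2 CPM with a prior count of 2, by group on the horizontal axis; points are libraries and short lines are group means (dark, wt; blue, KO#1; orange, KO#2). Fos, Fosb, Egr1, Egr2 and Atf3 have 1 high wt library at 0 h, replicate 3, in which Fos reached 176 CPM.

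At 0 h the replicates of wt differed more for some members than for most genes tested. Fos, the AP-1 subunit that needs a Jun protein to bind DNA, was at 29.5, 32.4 and 176 CPM in wt replicates 1 to 3. Egr1 was at 21.3, 13.4 and 88.2 CPM, Fosb at 3.61, 2.57 and 13.8, and Atf3 at 5.24, 6.15 and 22.5. Replicate 3 was therefore the high library for all 4 of these genes, and 8 of the 10 members were highest in it. Egr2 rested on 1, 1 and 39 counts in the same libraries (0.328, 0.0917 and 3.25 CPM). Ier2 instead had its high library in replicate 1, at 241, 61.9 and 102 CPM, whereas Junb, at 19.3, 14 and 19.6, and Ier3, at 4.92, 5.60 and 7.33, stayed close together. On the log2 CPM scale the SD of Fos in wt at 0 h was 1.45, and 95.9% of all genes tested had a smaller SD. For Egr1 the SD was 1.41, and 95.5% of genes were below it, while Junb, with an SD of 0.270, had 27.6% of genes below it. The median SD of the 10 members in this group was 1.06, against 0.426 for all genes tested.

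The libraries labelled KO#2 were also uneven in Fos, Fosb and Egr1. Egr1 was at 17, 0.225 and 4.07 CPM in KO#2 replicates 1 to 3 at 0 h, that is at 419, 5 and 85 counts. Fos was at 21.7, 2.92 and 15.3 CPM and Fosb at 1.70, 0.0899 and 2.54. Replicate 2 was the lowest of the 3 for Fos, Fosb, Fosl1, Jun, Junb, Egr1 and Egr2. Ier2, by contrast, was at 48.3, 46.3 and 43.6 CPM, with an SD of 0.0733 on the log2 scale, and 5.13% of genes had a smaller one. The median SD of the members was 0.752 against 0.310 for all genes. In KO#1 at 0 h Fos was at 15.0, 9.81 and 19.4 CPM and Egr1 at 19.1, 14.8 and 20.8, and the members' median SD of 0.535 was closer to the 0.460 of all genes.

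After 24 h the median SD of the members was near that of all genes in wt (0.314 against 0.309) and in KO#1 (0.330 against 0.374). The wt median is the value of Fosb and Egr2, at 0 or 1 count in each library, so it is set by the floor. Fos in wt at 24 h, from 11, 1 and 6 counts, still had an SD of 0.884, and 95.4% of genes had a smaller one. In KO#2 at 24 h the median SD was 0.749 against 0.336. Egr1 gave 45.6, 1.66 and 1.17 CPM there, from 873, 43 and 27 counts, so that a single library stood apart from both others. Atf3 had a different high library, at 1.2, 8.31 and 3.39 CPM. The members' mean deviation from the group mean, on the log2 scale, was 0.911 in wt replicate 3 at 0 h, 0.716 in KO#2 replicate 1 at 0 h and 0.607 in KO#2 replicate 1 at 24 h.

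**Figure D2:**
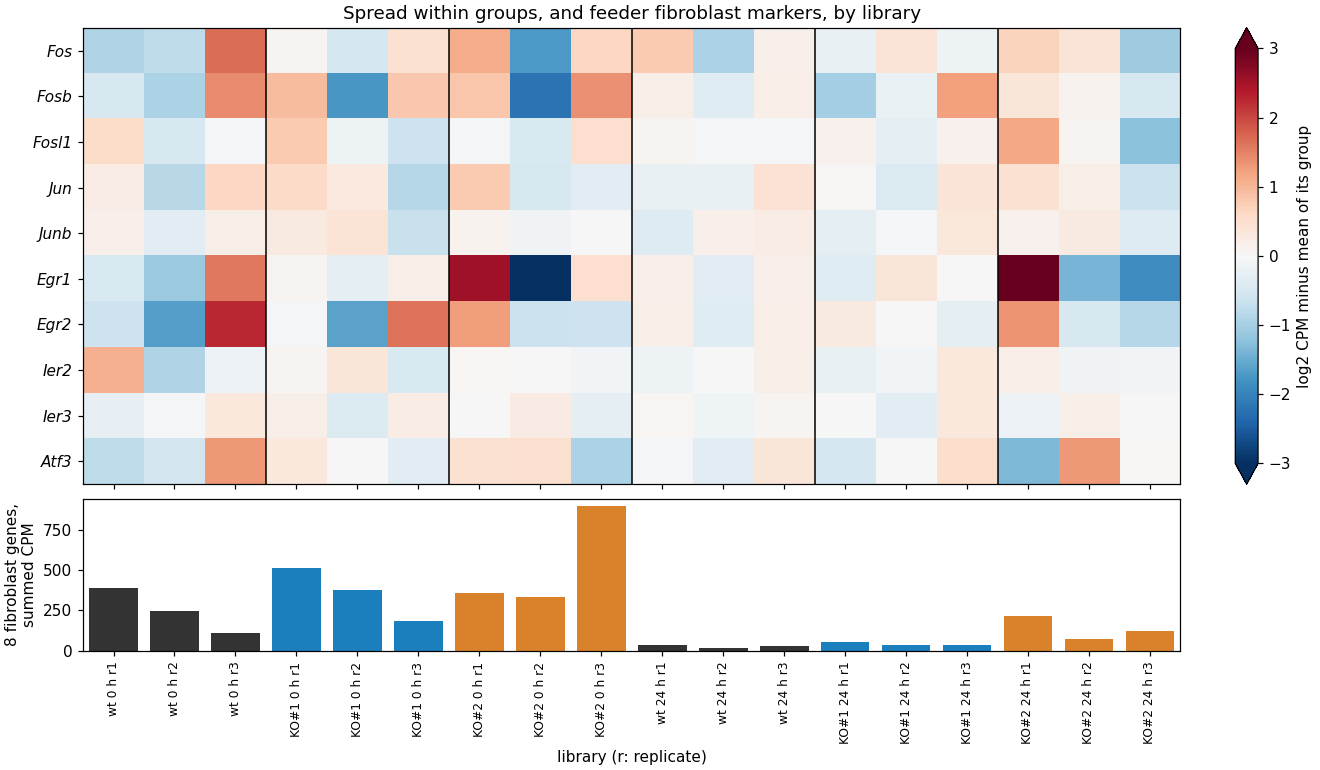
Deviation of each member's log2 CPM from its group mean in each library (colours), above the summed CPM of 8 fibroblast genes in the same libraries (bars). Fos, Fosb, Egr1 and Egr2 are high together in wt replicate 3 at 0 h, the library with the lowest fibroblast sum of its group, 110 CPM.

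Across the 18 libraries, deviations of single members from their group means moved with the mean deviation of the other members to different degrees. Pearson's r was 0.814 for Fos, 0.715 for Egr1, 0.705 for Fosb, 0.686 for Jun and 0.682 for Egr2, and only 0.329 for Junb, 0.201 for Ier3, 0.118 for Ier2 and 0.0825 for Atf3. These are descriptions, since the genes share libraries and depth. Of 10132 other genes with an average log2 CPM of at least 2, those whose deviations were among the most like the members' mean included Plekhm3 (r = 0.916), Kmt2c (r = 0.894), B4galt1 (r = 0.892) and Gltscr1l (r = 0.890).

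Markers of the feeder layer were measured beside these deviations. The sum of 8 fibroblast genes (the collagens Col3a1, Col1a2 and Col1a1, and Acta2, Thy1, Lox, Dcn and Postn) was 390, 247 and 110 CPM in wt replicates 1 to 3 at 0 h, with Dcn at 0 in all 3, so the library with the highest Fos had the lowest sum. In KO#2 at 0 h the sum was 359, 331 and 897 CPM and in KO#1 514, 378 and 183. At 24 h it was 19.0 to 34.5 CPM in wt, 38.7 to 51.8 in KO#1 and 219, 70.9 and 122 in KO#2, where the library with the highest Egr1 had the highest sum. Of the 8 fibroblast genes, 6 fell and 1 rose from 0 h to 24 h in wt, as in KO#1, and 3 fell and 0 rose in KO#2, in the same directions as most members, and the part of feeder RNA in the members' levels was not tested.

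The first comparison asks how the members changed when wt cells left the undifferentiated state. In wt cells 24 h after induction, 8 of the 10 members had fallen and Fosl1 had risen by the quasi-likelihood test of edgeR, with Benjamini-Hochberg adjustment over all genes. Of all 16619 genes tested, 50.7% were called, 24.7% lower and 26.0% higher. Of these calls, those of Fosb, Egr2 and Fosl1 are descriptions, since these genes passed the filter through the time at which they were high, and of the other 7 members 6 fell. The members' median log2 fold change was -2.54, and that of all genes was 0.03. The groups did not overlap for Fos, Fosb, Jun, Junb, Egr1, Egr2 and Atf3, all lower at 24 h, or for Fosl1, while 57.9% of all genes tested did not overlap either, 27.7% lower and 30.1% higher. For Egr2, wt 0 h replicates 1 and 2 held 1 count each, and no wt 24 h library held more than 1. Between these libraries the separation of Egr2 is set by library depth.

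Among the AP-1 genes, Fos went from 29.5, 32.4 and 176 CPM at 0 h to 0.645, 0.100 and 0.370 at 24 h, the last from 11, 1 and 6 counts. The fitted difference was 194-fold lower (log2 fold change -7.60, SE 0.92, adjusted p = 7.0e-06). Every 24 h library lay far below every 0 h library, but the 18 counts at 24 h set the size of the fall poorly, and it ran from -8.23 without wt 24 h replicate 1 to -6.24 without wt 0 h replicate 3. Fosb, a close relative of Fos, went from 3.61, 2.57 and 13.8 CPM to 0.0586, 0 and 0.0617, which is 205 counts in all against 2. The ratio of its pooled counts per pooled library size, 0 h over 24 h, was 171. Its exact 95% counting interval was 46.7 to 1420 (adjusted p of the fit = 0.000252), so the size of the Fosb fall is poorly set by the depth. The ratios given below for Fosl1 and Egr2 are pooled in the same way, which gives deep libraries more weight. The Jun partners fell less. Jun went from 21.3, 10.2 and 28.0 CPM to 3.05, 3.00 and 4.88, a 5.40-fold difference (log2 fold change -2.43, SE 0.47, adjusted p = 0.000439). Junb, which often dampens Jun, went from 19.3, 14 and 19.6 CPM to 5.68, 8.31 and 8.70, a 2.33-fold difference (log2 fold change -1.22, SE 0.29, adjusted p = 0.00251). Fosb was at -5.81 without wt 0 h replicate 3. The calls for Fos, Fosb, Jun and Junb remained when any 1 of the 6 libraries was left out.

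Fosl1, the Fos relative that lacks a strong transactivation domain, was the sole member to rise. It went from 0.328, 0.0917 and 0.167 CPM, from 1, 1 and 2 counts, to 0.879, 0.801 and 0.802. The fitted log2 fold change was 2.33 (SE 0.83, adjusted p = 0.0260), and the 0 h over 24 h ratio was 0.185 with a counting interval of 0.0479 to 0.517. The Fosl1 call was lost without wt 0 h replicate 2 (1.96, adjusted p = 0.106), without wt 0 h replicate 3 (2.39, adjusted p = 0.0833) and without wt 24 h replicate 1 (2.26, adjusted p = 0.0548).

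Of the zinc finger factors, Egr1 went from 21.3, 13.4 and 88.2 CPM to 1.17, 0.801 and 1.17, a 38.5-fold difference (log2 fold change -5.27, SE 1.34, adjusted p = 0.00360). All 24 h libraries were again below all 0 h libraries, and without the high wt 0 h replicate 3 the log2 fold change of Egr1 was -3.99 (adjusted p = 0.0238). Egr2, a target of the same signals, fell from 41 counts in all to 2, a ratio of 34.2 (counting interval 8.87 to 292, adjusted p of the fit = 0.0143). Nearly all of its counts came from wt 0 h replicate 3, and without that library Egr2 had a log2 fold change of -1.58 (adjusted p = 0.565).

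Atf3, induced by amino acid shortage and other stresses, went from 5.24, 6.15 and 22.5 CPM to 1.76, 1.40 and 2.35, a 6.26-fold difference (log2 fold change -2.65, SE 0.64, adjusted p = 0.00243). The Atf3 groups did not overlap, and without wt 0 h replicate 3 the value was -1.63 (adjusted p = 0.0433). Ier2, the most abundant member at both times, went from 241, 61.9 and 102 CPM to 61.1, 68.0 and 76.8. Its groups overlap, with wt 0 h replicate 2 inside the 24 h range, and its log2 fold change was -0.96 (SE 0.35, adjusted p = 0.0280). Without wt 0 h replicate 1 the value for Ier2 was -0.29 (adjusted p = 0.395), and the call was also lost without wt 24 h replicate 1 (-0.91, adjusted p = 0.0809) or replicate 2 (-0.99, adjusted p = 0.0627). Ier3 was at 4.92, 5.60 and 7.33 CPM at 0 h and at 4.86, 4.31 and 4.94 at 24 h, and its log2 fold change of -0.36 (SE 0.28, adjusted p = 0.295) did not pass the test.

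The same change was then followed in the KO clones. In KO#1 cells 4 members fell and 1, Fosl1, rose, where 40.8% of all genes were called, 20.6% lower and 20.1% higher. As in wt, the Fosl1 call is a description, since the gene passed the filter through the time at which it was high. Fos went from 15.0, 9.81 and 19.4 CPM to 0.294, 0.511 and 0.311, a 40.6-fold difference (log2 fold change -5.34, SE 0.91, adjusted p = 0.000261). Egr1 went from 19.1, 14.8 and 20.8 CPM to 0.882, 1.53 and 1.18, a 15.4-fold difference (log2 fold change -3.95, SE 1.30, adjusted p = 0.0218). For both genes the 2 times were well apart in every library. The Egr1 call was lost without KO#1 24 h replicate 1 (-3.78, adjusted p = 0.0706), replicate 2 (-4.15, adjusted p = 0.0519) or replicate 3 (-3.96, adjusted p = 0.0537).

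Jun in KO#1 went from 16.5, 13.6 and 6.01 CPM to 2.42, 1.74 and 3.17 (log2 fold change -2.26, SE 0.48, adjusted p = 0.00148), close to its size in wt. Atf3 went from 15.6, 12.7 and 10.0 CPM to 0.808, 1.23 and 1.80, a 9.82-fold difference (log2 fold change -3.30, SE 0.66, adjusted p = 0.00101). Both calls remained without any 1 library. Fosl1 again rose, from 0.521, 0.209 and 0.117 CPM to 1.25, 0.919 and 1.24 (log2 fold change 2.12, SE 0.74, adjusted p = 0.0285). That Fosl1 call was lost without KO#1 0 h replicate 2 (2.05, adjusted p = 0.0637) or replicate 3 (1.53, adjusted p = 0.139) and without KO#1 24 h replicate 1 (2.05, adjusted p = 0.0633) or replicate 3 (2.04, adjusted p = 0.0537), and the value was 2.95 without KO#1 0 h replicate 1.

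The remaining KO#1 members did not pass the test. Fosb was at 2.08, 0.209 and 1.87 CPM at 0 h and at 0, 0.102 and 0.497 at 24 h (log2 fold change -2.73, SE 1.08, adjusted p = 0.0503). Fosb did pass when KO#1 0 h replicate 2 (-3.13, adjusted p = 0.0333) or KO#1 24 h replicate 3 (-4.88, adjusted p = 0.0217) was left out, and in 6 other settings, DESeq2 among them (-2.76, adjusted p = 0.0255), so its call sits at the threshold. Egr2 had 2, 0 and 19 counts at 0 h, 21 in all, and 4 in all at 24 h. The pooled ratio was 7.0 with a counting interval of 2.36 to 28.1 (adjusted p of the fit = 0.184). Nearly all of the 0 h counts of Egr2 came from KO#1 replicate 3. Junb, which fell in wt, was at 27.2, 30.0 and 14.3 CPM and then at 13.6, 16.2 and 21.1 in KO#1, with overlapping groups and a log2 fold change of -0.48 (adjusted p = 0.187). Without KO#1 0 h replicate 3, Junb passed at -0.75 (adjusted p = 0.0317). Ier2 was at 115, 140 and 79.1 CPM and then at 77.7, 85.6 and 114, and Ier3 at 5.08, 3.34 and 5.19 and then at 6.10, 4.70 and 7.52, so both overlapped between the times.

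In KO#2 only Fos and Fosb fell and 0 members rose, where 26.0% of all genes were called, 13.3% lower. The Fosb call is a description here too, since Fosb passed the filter through the time at which it was high. Fos went from 21.7, 2.92 and 15.3 CPM to 2.04, 1.66 and 0.521, a 9.49-fold difference (log2 fold change -3.25, SE 0.73, adjusted p = 0.00340), and its groups did not overlap. The Fos call remained without any 1 library. Fosb went from 1.70, 0.0899 and 2.54 CPM to 0.261, 0.193 and 0.0868, with KO#2 0 h replicate 2 inside the 24 h range (7.80-fold, log2 fold change -2.96, SE 0.99, adjusted p = 0.0341). Fosb lost its call without KO#2 0 h replicate 1 (-2.82, adjusted p = 0.0868) or replicate 3 (-2.30, adjusted p = 0.134) and without KO#2 24 h replicate 1 (-3.27, adjusted p = 0.0524), replicate 2 (-3.03, adjusted p = 0.0813) or replicate 3 (-2.64, adjusted p = 0.131).

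Egr1 in KO#2 was at 17, 0.225 and 4.07 CPM and then at 45.6, 1.66 and 1.17, with a log2 fold change of 1.17 (SE 1.08, adjusted p = 0.460). Without KO#2 24 h replicate 1 the sign of the Egr1 value turned, to -2.32 (adjusted p = 0.0962). Jun was at 26.5, 11.1 and 12.3 CPM and then at 11.9, 9.74 and 5.51, with groups that just overlap (log2 fold change -0.88, adjusted p = 0.145). Atf3 was at 11.7, 11.8 and 4.31 CPM and then at 1.2, 8.31 and 3.39 (log2 fold change -1.10, adjusted p = 0.174), and it passed without KO#2 24 h replicate 2 (-2.0, adjusted p = 0.0280). Junb was at 13.9, 12.0 and 12.7 CPM and then at 8.51, 9.40 and 5.95, groups that do not overlap but whose log2 fold change of -0.69 missed the threshold (adjusted p = 0.0815). Fosl1 was at 0.284, 0.18 and 0.479 CPM and then at 1.72, 0.735 and 0.217 (log2 fold change 1.47, adjusted p = 0.0854), and it passed without KO#2 24 h replicate 3 (1.93, adjusted p = 0.0258). Ier2, at 48.3, 46.3 and 43.6 CPM and then at 59.2, 48.1 and 48.4, Ier3, at 5.03, 5.89 and 4.12 and then at 3.45, 4.41 and 3.95, and Egr2, at no more than 0.528 CPM at either time, did not pass.

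**Figure D3:**
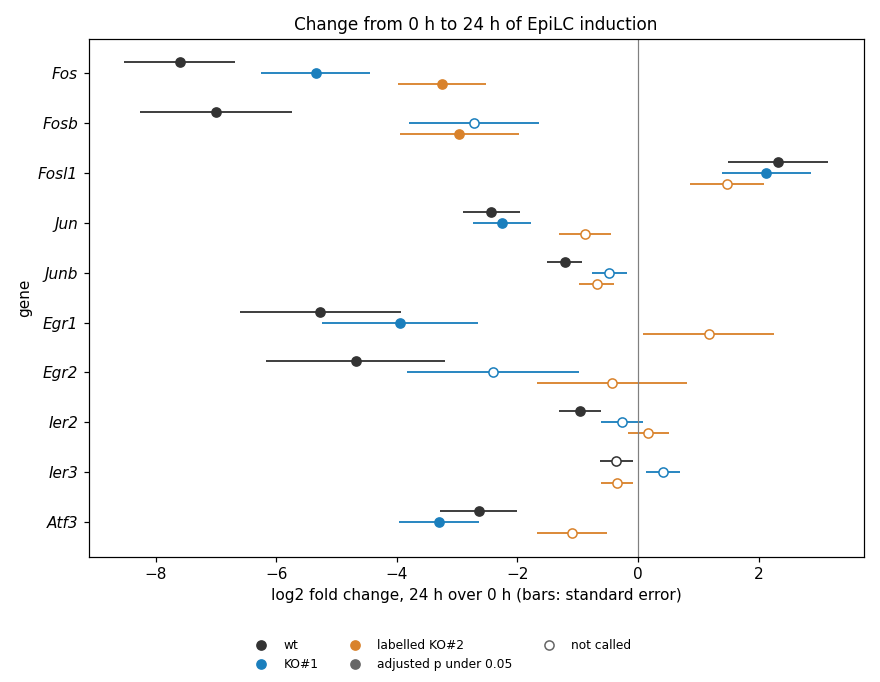
Log2 fold change of each member, 24 h over 0 h, in wt, KO#1 and KO#2 (points, with bars of 1 SE from the edgeR fit, filled where the adjusted p was under 0.05). Fos is far below 0 in all 3 lines, at -7.60, -5.34 and -3.25, and Egr1 in KO#2 sits at 1.17 with an open point.

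The median log2 fold change of the members was -2.54 in wt, -2.33 in KO#1 and -0.56 in KO#2, while the medians of all genes were 0.03, 0.00 and -0.03. Whether a KO clone changed differently from wt was tested as the difference between the changes. By edgeR's quasi-likelihood test 0 of 10 members were called for KO#1, where 0.391% of all genes were (0.253% higher), and 0 of 10 for KO#2, where 1.47% were (0.951% higher). At an unadjusted p under 0.05 there were 1 for KO#1 (Fosb) and 5 for KO#2 (Fos, Fosb, Jun, Egr1 and Ier2), where 10.1% and 23.6% of all genes passed, so the KO#1 count is at the background. DESeq2 called 0 and 2 members, with 1.66% and 8.06% of all genes. For KO#2 the change of Fos differed from that in wt by 4.36 (SE 1.12, adjusted p = 0.0578) and the change of Egr1 by 6.44 (SE 1.71, adjusted p = 0.0635), on the log2 scale. These are the members that DESeq2 called, Fos with an adjusted p of 0.00159 and Egr1 with 0.00861. Both values lean on the uneven libraries described above. Without KO#2 24 h replicate 1 the difference for Egr1 was 2.95 (adjusted p = 0.297), and without wt 0 h replicate 3 that for Fos was 3.00 (adjusted p = 0.149). Other single libraries move them over the threshold the other way. Without wt 0 h replicate 2, Fos was at 4.73 (adjusted p = 0.0345) and Egr1 at 6.86 (adjusted p = 0.0451), and without KO#2 24 h replicate 3, Fos was at 4.75 (adjusted p = 0.0295) and Egr1 at 6.99 (adjusted p = 0.0254). The same held without KO#2 0 h replicate 1, with Fos at 4.90 (adjusted p = 0.0497) and Egr1 at 8.17 (adjusted p = 0.0413), and for Fos without wt 0 h replicate 1, at 4.76 (adjusted p = 0.0472). For KO#1 the difference was 2.26 for Fos (adjusted p = 0.627) and 4.27 for Fosb (adjusted p = 0.427).

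Wt and KO cells were next compared at each time. At 0 h Fos was lower in both KO clones, and the comparisons with wt share the same 3 wt libraries. Fos was at 15.0, 9.81 and 19.4 CPM in KO#1 and at 21.7, 2.92 and 15.3 in KO#2 against 29.5, 32.4 and 176 in wt, and no KO library reached the lowest wt library. In KO#1 it was the only member called, where 6.67% of all genes were, 2.68% lower and 3.99% higher (5.37-fold lower, log2 fold change -2.43, SE 0.68, adjusted p = 0.0364). In KO#2, where 38.1% of all genes were called, 16.6% lower, Fos was 6.0-fold lower (log2 fold change -2.59, SE 0.67, adjusted p = 0.00724). Without wt 0 h replicate 3 neither passed, with Fos at -1.06 (adjusted p = 0.421) in KO#1 and at -1.22 (adjusted p = 0.127) in KO#2. In KO#1 the Fos call was also lost without KO#1 0 h replicate 1 (-2.43, adjusted p = 0.0947), replicate 2 (-2.20, adjusted p = 0.117) or replicate 3 (-2.68, adjusted p = 0.0713).

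KO#2 had 2 further members below wt at 0 h, Fosb and Ier2, so that 3 of 10 were called, which does not exceed the 38.1% of all genes. Ier2 was at 48.3, 46.3 and 43.6 CPM in KO#2 against 241, 61.9 and 102 in wt, 2.91-fold lower without overlap (log2 fold change -1.54, SE 0.35, adjusted p = 0.00331). Without wt 0 h replicate 1, the high library for Ier2, the value was -0.85 (adjusted p = 0.0267). Fosb was at 1.70, 0.0899 and 2.54 CPM against 3.61, 2.57 and 13.8 (log2 fold change -2.24, SE 0.83, adjusted p = 0.0418), and its highest KO#2 library was just under its lowest wt library. The Fosb call was lost without wt 0 h replicate 3 (-1.06, adjusted p = 0.397), KO#2 0 h replicate 1 (-2.38, adjusted p = 0.0823) or KO#2 0 h replicate 2 (-1.69, adjusted p = 0.105). Egr1 in KO#2 had a log2 fold change of -2.54 against wt (adjusted p = 0.0816) and passed without KO#2 0 h replicate 1 (-4.27, adjusted p = 0.0287). Egr2 was at -2.63 (adjusted p = 0.0726), turned to 0.46 without wt 0 h replicate 3, and passed without wt 0 h replicate 2 (-3.23, adjusted p = 0.0322) or KO#2 0 h replicate 1 (-4.65, adjusted p = 0.0322). Fosb in KO#1 was at -2.20 against wt (adjusted p = 0.155). At 0 h the KO#2 libraries also had 76.3 to 79.1% of counts on protein-coding genes against 52.6 to 66.7% in wt, 4 of 8 fibroblast genes were called higher in them, and 3 of 4 pluripotency genes lower. The part of these in the members' levels was not tested. The members' median log2 fold change at 0 h was -0.56 in KO#1 and -1.0 in KO#2.

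At 24 h the few members called were higher in the libraries labelled KO, in numbers near or under the share of all genes. In those labelled KO#2 the fitted Hmga2 level given above was near that of wt. Its libraries ran from 3.02 to 10.4 CPM, below and above the 5.51 to 5.93 of wt. Leaving out 1 library gave log2 fold changes of Hmga2 from -0.83 to 0.27. Cell state markers differed too, with 5 of 10 naive genes called higher and 4 of 8 primed genes lower in KO#1 than in wt, and 6 and 2 in KO#2. The naive sums were 485 to 604 CPM in KO#1 and 313 to 718 in KO#2, and the primed sums 578 to 1159 and 554 to 1293, and their part in the members' levels was not tested. In KO#1 a single member was called, where 9.84% of all genes were, 6.25% higher and 3.60% lower. Junb was at 13.6, 16.2 and 21.1 CPM in KO#1 against 5.68, 8.31 and 8.70 in wt, 2.25-fold higher without overlap (log2 fold change 1.17, SE 0.29, adjusted p = 0.0135). The Junb call was lost without wt 24 h replicate 1 (1.01, adjusted p = 0.0755) or KO#1 24 h replicate 3 (1.01, adjusted p = 0.0553).

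In KO#2 Jun and Egr1 were called at 24 h, 2 of 10 members where 37.3% of all genes were, 21.3% higher and 16.0% lower. Jun was at 11.9, 9.74 and 5.51 CPM in KO#2 against 3.05, 3.00 and 4.88 in wt, 2.47-fold higher without overlap (log2 fold change 1.30, SE 0.45, adjusted p = 0.0309). The Jun call was lost without wt 24 h replicate 1 (1.16, adjusted p = 0.100) or replicate 2 (1.18, adjusted p = 0.0971) and without KO#2 24 h replicate 1 (1.06, adjusted p = 0.114) or replicate 2 (1.25, adjusted p = 0.0716). Egr1 was at 45.6, 1.66 and 1.17 CPM in KO#2 against 1.17, 0.801 and 1.17 in wt, 14.9-fold higher in the fit (log2 fold change 3.90, SE 1.29, adjusted p = 0.0238). That value comes from replicate 1, and without it Egr1 was at 0.41 (adjusted p = 0.80). The Egr1 call was also lost without wt 24 h replicate 1 (3.95, adjusted p = 0.0660), replicate 2 (3.75, adjusted p = 0.0724) or replicate 3 (3.98, adjusted p = 0.0649). Fos, at 2.04, 1.66 and 0.521 CPM in KO#2 against 0.645, 0.100 and 0.370 in wt, had a log2 fold change of 1.77 (adjusted p = 0.134). Atf3 had 1.22 (adjusted p = 0.127) and passed without KO#2 24 h replicate 1 (1.65, adjusted p = 0.0416). The median over the members was 1.26 in KO#2 and 0.40 in KO#1. The KO#2 libraries at 24 h also had the higher share of protein-coding counts and the higher fibroblast sums given above, and their sum of primitive endoderm genes was 14.5 to 28.4 CPM against 1.36 to 2.11 in wt. The part of these in the members' levels was not tested.

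**Figure D4:**
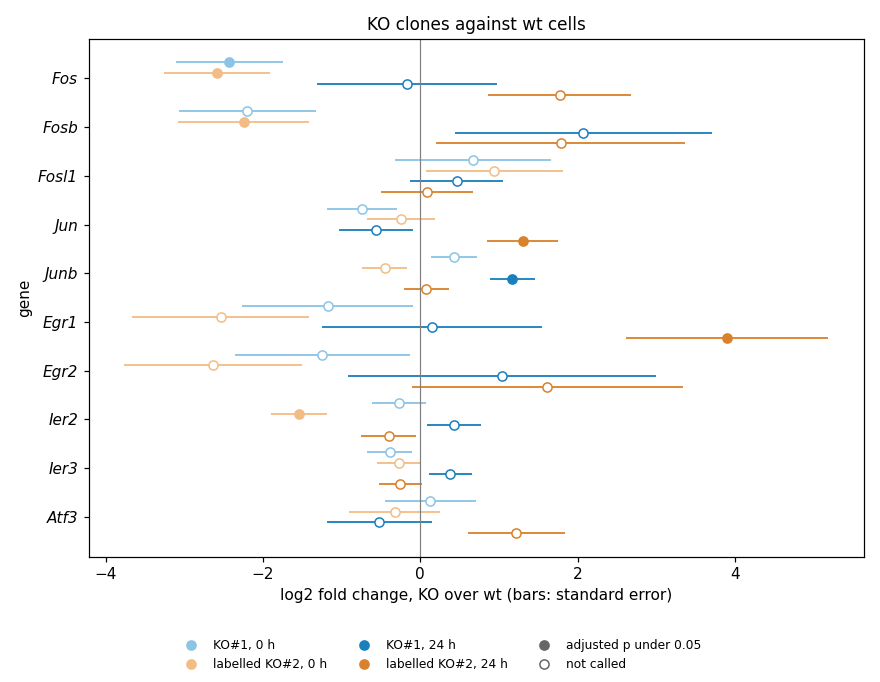
Log2 fold change of each member in KO#1 and KO#2 over wt, at 0 h and at 24 h (points, with bars of 1 SE from the edgeR fit, filled where the adjusted p was under 0.05). At 0 h Fos is below 0 in both clones, at -2.43 and -2.59, and at 24 h Junb is called in KO#1 and Jun and Egr1 in KO#2.

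The KO clones also differed from each other. At 0 h, where 26.4% of all genes were called, 11.3% lower, Ier2 and Junb were lower in KO#2 than in KO#1. Ier2 ran from 43.6 to 48.3 CPM in KO#2 and from 79.1 to 140 in KO#1 (log2 fold change -1.27, SE 0.35, adjusted p = 0.0136), and its call remained without any 1 library. Junb ran from 12.0 to 13.9 CPM against 14.3 to 30.0 (log2 fold change -0.88, SE 0.29, adjusted p = 0.0301). The Junb call was lost without KO#1 0 h replicate 1 (-0.77, adjusted p = 0.0900) or replicate 2 (-0.71, adjusted p = 0.109) and without KO#2 0 h replicate 1 (-0.94, adjusted p = 0.0624), replicate 2 (-0.83, adjusted p = 0.0796) or replicate 3 (-0.87, adjusted p = 0.0762).

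At 24 h, 4 of 10 members differed between the clones, where 35.4% of all genes did, 19.3% higher and 16.1% lower in KO#2. Jun was higher in KO#2, at 5.51 to 11.9 CPM against 1.74 to 3.17 in KO#1 (log2 fold change 1.87, SE 0.47, adjusted p = 0.00528), and Junb was lower, at 5.95 to 9.40 against 13.6 to 21.1 (log2 fold change -1.10, SE 0.29, adjusted p = 0.00688). These partners of Fos therefore differed in opposite directions without overlap between the clones, and both calls remained without any 1 library. When library totals alone set the scale the Junb value was -0.04 (adjusted p = 0.926), a scaling that moved the median of all genes in this comparison from 0.14 to 1.21. Egr1 was at 3.76 (SE 1.28, adjusted p = 0.0295) and at 0.26 without KO#2 24 h replicate 1 (adjusted p = 0.878), and the Egr1 call was also lost without KO#1 24 h replicate 1 (3.53, adjusted p = 0.0868), replicate 2 (3.90, adjusted p = 0.0693) or replicate 3 (3.71, adjusted p = 0.0817). Atf3 was at 1.74 (SE 0.64, adjusted p = 0.0424) and at 0.84 without KO#2 24 h replicate 2 (adjusted p = 0.330). The Atf3 call was also lost without KO#1 24 h replicate 1 (1.47, adjusted p = 0.140), replicate 2 (1.69, adjusted p = 0.105) or replicate 3 (2.09, adjusted p = 0.0551).

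Genes of the same pathway were counted from lists, 24 h against 0 h. Beside the counts stand the shares of all genes that fell, 24.7% in wt, 20.6% in KO#1 and 13.3% in KO#2, and that were called in either direction, 50.7%, 40.8% and 26.0%. Of 9 tested genes among the other AP-1 and small Maf genes, 5 fell in wt, 5 in KO#1 and 4 in KO#2, and 0 rose. Jdp2, a dimer partner that represses AP-1 sites, fell with log2 fold changes of -5.65, -4.45 and -2.84 in wt, KO#1 and KO#2, from 30.5, 15.9 and 23.8 CPM in wt at 0 h to 0.645, 0.300 and 0.370. Of 31 other early genes tested, 17 fell and 6 rose in wt, 12 and 4 in KO#1, and 13 and 5 in KO#2. Klf10, an early target of TGF-beta signals, fell by 2.13, 1.25 and 1.46 on the log2 scale in the 3 lines. This list also holds Klf2 and Klf4, which mark the naive state.

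Of 8 genes for SRF, its partners and the Nab corepressors, 6 fell and 1 rose in wt, 4 fell and 0 rose in KO#1, and 1 fell and 1 rose in KO#2. Srf itself rose in wt (log2 fold change 0.66) and in KO#2 (0.87), and stood at 0.11 without a call in KO#1. The wt call of Srf was lost without wt 0 h replicate 2 (0.46, adjusted p = 0.131) or wt 24 h replicate 3 (0.47, adjusted p = 0.140), and with library totals alone the value was 0.075 (adjusted p = 0.878). In KO#2 the Srf call remained without any 1 library but was lost in 3 of 10 other settings. Of the 15 upstream kinases, the counts called were 1 higher and 2 lower in wt, 2 and 3 in KO#1, and 2 and 1 in KO#2, which in the KO lines is near the shares of 40.8% and 26.0% of all genes.

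More of the feedback genes that ERK activity induces rose than fell. Of these 11 genes 6 rose and 3 fell in wt, 7 rose and 1 fell in KO#1, and 9 rose and 0 fell in KO#2. Dusp6, the phosphatase that switches ERK off, rose with log2 fold changes of 2.36, 4.17 and 3.52, from 14.7, 16.2 and 32.3 CPM in wt at 0 h to 106, 108 and 116. Etv4, an ETS factor downstream of FGF, rose with 3.89, 3.49 and 2.54. Spry2, an inhibitor of growth factor signals, fell in wt, from 159, 97.2 and 144 CPM to 52.0, 49.8 and 60.5 (-1.30), and rose in KO#1 (1.29, lost with library totals alone at 0.51, adjusted p = 0.242) and KO#2 (0.84, lost without KO#2 0 h replicate 3 at 0.77, adjusted p = 0.0679), whose 0 h libraries ran from 9.80 to 21.9 CPM.

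Of 8 heat shock and dissociation genes, 4 rose in wt, 3 in KO#1 and 2 in KO#2 and 0 fell, where 26.0%, 20.1% and 12.7% of all genes rose. Hspa8 was at 1.90 in wt, 0.86 (not called) in KO#1 and 1.18 in KO#2, where its call was kept in 1 of 6 fits that left out a library (1.01 to 1.41, adjusted p up to 0.149, lost except without KO#2 0 h replicate 2). Of 9 genes for Atf4 and the unfolded protein response, the stress pathway upstream of Atf3, 7 fell and 1 rose in wt, 8 fell and 0 rose in KO#1, and 5 fell and 1 rose in KO#2. Trib3, a pseudokinase target of Atf4, fell with log2 fold changes of -3.50 in wt and -2.89 in KO#1. In KO#2 Trib3 was at -1.07, with its call kept in 1 of 6 such fits (-1.39 to -0.82, adjusted p up to 0.151, lost except without KO#2 24 h replicate 3). In wt, where 50.7% of all genes were called, the list medians were -0.95 for the other AP-1 genes, -1.18 for the other early genes, -1.25 for SRF and its partners, 0.15 for the kinases, 0.85 for the ERK feedback genes, 1.12 for the heat shock genes and -2.07 for the Atf4 genes.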

How the data were processed

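Gene counts were those deposited by the authors for 18 libraries of total RNA, made with the nf-core rnaseq pipeline by trimming, removal of ribosomal reads, alignment with STAR to GRCm38 and counting; the annotation release and the strand setting are not given in the sources used here. All 18 count columns were mapped to samples by name, no unmapped sample column remained (0), and 0 of 153 library pairs held identical values.

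From the counts, edgeR 4.0.16 (R 4.3.3) was run with TMM scaling, a filter that kept 16619 genes (minimum count 10), a quasi-likelihood fit of 6 groups over all libraries (common dispersion 0.0970) and Benjamini-Hochberg adjustment. An adjusted p under 0.05 was a call. The SE was taken from the F statistic. CPM used TMM-scaled library totals, log2 CPM a prior count of 2, and counting intervals are exact at 95% and, like the floor of 3 counts, cover counting error only. RPKM used GENCODE M21 exon lengths (45143 of 45706 IDs matched). DESeq2 1.42.0, other scalings and filters, a replicate block and leaving out each library were alternatives.

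The members and the gene lists were chosen with earlier results of these data known. Named list genes are called genes, up to 4 a list, with the highest average level. The labels say biological replicate but not how cultures were separated, so p-values measure the spread between these samples. The replicate numbers paired KO#1 and wt at 24 h, where deviations of same-numbered libraries correlated at 0.480, 0.223 and 0.587.

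Some items are not reported here.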

Additional observations from a re-analysis of the deposited data

Results flagged for a closer look

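Spry2, an ERK feedback gene outside the members, changed differently in the KO clones and in wt by edgeR's test of the difference between changes. The difference between the 24 h changes, KO minus wt, was 2.59 for KO#1 (adjusted p = 0.00358) and 2.14 for KO#2 (adjusted p = 0.00695), on the log2 scale, and both calls of Spry2 remained in all 12 fits that left out 1 library. With library totals alone as the scale, Spry2 was at 2.39 for KO#1 (adjusted p = 0.0731). The 2 differences share the wt libraries.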

How the results depend on the processing

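Of 1259 alternative values for 78 gene results, 1078 kept their direction and side of the threshold, 122 lost a call, 50 gained one and 9 changed sign. Of the 54 results that were called, 0 changed sign. The cause of each change listed was not tested. Sign changed for Srf in KO#1 from 0 h to 24 h (-0.64 with library totals alone, -0.13 without KO#1 24 h replicate 3), for Egr1 in KO#2 (-2.32 without KO#2 24 h replicate 1), for Egr2 in KO#2 over wt at 0 h (0.46 without wt 0 h replicate 3) and for Hmga2 in KO#2 over wt at 24 h (1.01 with library totals alone, 0.10 with at least 10 counts in every library, 0.031 with protein-coding genes only, 0.27 and 0.21 without KO#2 24 h replicate 2 or 3).

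Counts of called members moved as follows, with the share of all genes called in brackets. With DESeq2 the KO#2 response went from 0 to 2 (all genes, 1.47 to 8.06%). With library totals alone, KO#1 over wt at 24 h went from 1 to 0 (all genes, 9.84 to 6.55%) and KO#2 over wt at 24 h from 2 to 5 (37.3 to 61.4%). By the same scaling KO#2 over KO#1 at 0 h went from 2 to 0 (26.4 to 20.9%) and the KO#2 response from 0 to 2 (1.47 to 4.82%). That scaling moved the median of all genes from 0.03 to -0.58 in wt and from 0.20 to 1.24 in KO#2 over wt at 24 h. Without a filter, KO#2 from 0 h to 24 h went from 2 to 4, KO#1 over wt at 0 h from 1 to 3, KO#2 over wt from 3 to 5 at 0 h and from 2 to 4 at 24 h, and the responses from 0 to 1 (KO#1) and 0 to 5 (KO#2; all genes, 1.47 to 5.90%). Fosb in KO#1 from 0 h to 24 h gained a call with DESeq2, RLE factors (-2.72, adjusted p = 0.0497), library totals alone (-3.44, adjusted p = 0.00904), no filter (-2.71, adjusted p = 0.000446), the replicate block (-2.78, adjusted p = 0.0237) and protein-coding genes only (-2.73, adjusted p = 0.0441). Requiring at least 10 counts in every library leaves fewer members tested, among 9709 genes. The time comparisons then went from 9 to 4 in wt (50.7 to 60.4%), 5 to 2 in KO#1 (40.8 to 48.0%) and 2 to 0 in KO#2 (26.0 to 26.9%). At 0 h KO#1 over wt went from 1 to 0 (6.67 to 4.92%), KO#2 over wt from 3 to 1 (38.1 to 40.5%) and KO#2 over KO#1 from 2 to 1 (26.4 to 30.1%). KO#2 over wt at 24 h went from 2 to 1 (37.3 to 41.9%). With only the groups compared, KO#2 from 0 h to 24 h went from 2 to 1 (26.0 to 27.0%). In that setting KO#1 over wt at 0 h went from 1 to 0 (6.67 to 2.80%) and KO#2 over KO#1 at 0 h from 2 to 1 (26.4 to 19.5%). At an adjusted p under 0.01, KO#1 and KO#2 from 0 h to 24 h went from 5 to 3 (40.8 to 24.0%) and 2 to 1 (26.0 to 13.7%). KO#1 over wt went from 1 to 0 at 0 h (6.67 to 3.01%) and at 24 h (9.84 to 4.84%), and KO#2 over wt at 24 h from 2 to 0 (37.3 to 21.6%). KO#2 over KO#1 went from 2 to 0 at 0 h (26.4 to 11.5%) and 4 to 2 at 24 h (35.4 to 20.5%). With a log2 fold change of at least 1, KO#2 over KO#1 at 0 h went from 2 to 1 (26.4 to 18.4%). With protein-coding genes only, an alternative chosen after seeing the data, the KO#2 response went from 0 to 2 (1.47 to 3.37%).

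With the replicate block, KO#2 over wt at 24 h went from 2 to 1 (Egr1 lost, 3.21, adjusted p = 0.0555), where the share of all genes went from 37.3 to 38.7%. KO#2 over KO#1 at 24 h went from 4 to 2 (all genes, 35.4 to 36.8%) and the KO#2 response from 0 to 2 (1.47 to 2.68%). In the pairing of KO#1 and wt at 24 h the block changed no member's call, and elsewhere same-numbered libraries did not all deviate together (over all groups, that pairing included, the mean correlation was 0.0531 for same-numbered and -0.0266 for other libraries). The block was a term shared by all 18 libraries, so it cannot take up a pairing particular to those groups. Whether that pairing changes their p-values was not tested.

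Leaving out 1 library at a time gave 7 to 9 called members in wt, 3 to 5 in KO#1 and 1 to 2 in KO#2 from 0 h to 24 h, 0 to 1 for KO#1 over wt at either time, 1 to 4 at 0 h and 0 to 2 at 24 h for KO#2 over wt, 1 to 2 and 2 to 4 for KO#2 over KO#1, 0 for the KO#1 response and 0 to 2 for that of KO#2. Over the same fits Egr2 in KO#2 over wt at 0 h ran from -4.65 to 0.46, Egr1 in KO#2 from 0 h to 24 h from -2.32 to 2.91 and Hmga2 in KO#2 over wt at 24 h from -0.83 to 0.27. Depth limits Fosb, Egr2 and Fosl1, and Fos at 24 h.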
